A study of Mus musculus with 18 samples.

Results

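The network, beaded-filament and FACIT collagens, 10 genes that do not build the large fibrils of cartilage, were followed through joint injury in mouse knees. They were chosen by name from the 49184 genes to which the transcripts of the series were assigned: Col4a1, Col4a2 and Col8a1 (network-forming collagens), Col6a1, Col6a2 and Col6a3 (beaded-filament collagen), Col12a1 and Col14a1 (collagens that bind to the surface of fibrils), and Col15a1 and Col18a1 (basement membrane zone collagens). All 10 passed the filter on low counts. At day 7 after rupture of the anterior cruciate ligament (ACL), all 10 were higher in the injured knee than in naïve knees, from 2.61-fold for Col4a2 to 9.16-fold for Col12a1. Across all 21129 genes tested, 16.6% passed the same test in either direction and 10.4% passed it as higher.

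Collagen IV forms the sheet-like network of basement membranes, and collagen VIII a related network around vessels and other cells. Collagen VI assembles 3 different chains into beaded filaments, which surround chondrocytes as the pericellular matrix of articular cartilage. Collagens XII and XIV are fibril-associated collagens with interrupted triple helices (FACITs), which coat collagen fibrils in tendon, ligament and other dense tissue. Collagens XV and XVIII carry glycosaminoglycan chains and lie between basement membranes and the fibrils beside them, and a fragment cut from the end of collagen XVIII is known as endostatin.

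RNA was measured by sequencing of total RNA depleted of ribosomal RNA in 18 libraries of knee cartilage from wild-type male C57Bl/6J mice 12 weeks old. Injured knees were right knees in which a single load of 12 N ruptured the ACL, contralateral knees were the unloaded left knees of injured mice, and naïve knees came from mice without injury, taken with the day 7 samples. There were 6 naïve libraries, and 3 libraries each of injured and of contralateral cartilage at day 1 and at day 7. Each library is a pool of several knees, and the sources differ on how many mice entered a pool (4 for every sample in one, and 2 at day 1 and 4 at day 7 in another) and on whether caps were medial or from the whole femoral condyle. By the study's scheme, left and right knees of the same 6 naïve mice were pooled apart, so the naïve libraries share mice. The labels do not tie libraries to mice, and the tests treat libraries as independent.

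Estimated counts per library ranged from 16074762 to 41794005. The libraries held RNA of more than chondrocytes, the cell type given by the labels. In naïve libraries the cartilage collagen Col2a1 had a mean of 3240 CPM (counts scaled to a library total of 1000000), the muscle myosin Myh4 2084 CPM and the red cell globin Hbb-bs 14131 CPM. None of the markers listed for 9 cell types was absent from all libraries. One library stood apart, day 7 contralateral library 1, in which the 10 most abundant genes held 42.5% of the counts, against 16.6% to 29.8% in the other 17. The comparisons with the day 7 contralateral group are therefore given with and without it. In bulk tissue, a change in the number of cells of a type and a change in RNA per cell cannot be told apart.

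The 300 bases around the annotated starts (250 before and 50 after, from RefSeq on GRCm38.p6) were available for 8 of the 10 genes and are shown where genes share a locus or use separate starts. Capitals mark matches, on either strand, to the GC box (GGGCGG), the CCAAT box (CCAAT), the TATA box (TATAAA), the AP-1 motif (TGANTCA), the TEAD motif (GGAATG) and a Smad motif (CAGACA), no 2 of which overlap in the windows shown. A match is a description of the letters and not of binding. Col4a1 and Col4a2 lie head to head, and their annotated first bases overlap by 22 bases, so 1 stretch serves both genes. The window of Col4a1, chr8:11312777-11313076 on the minus strand, shares 78 bases with the window of Col4a2. It holds 1 GC box and 1 CCAAT match, and 37.4% of all 32851 mouse windows held a CCAAT match.
Col4a1: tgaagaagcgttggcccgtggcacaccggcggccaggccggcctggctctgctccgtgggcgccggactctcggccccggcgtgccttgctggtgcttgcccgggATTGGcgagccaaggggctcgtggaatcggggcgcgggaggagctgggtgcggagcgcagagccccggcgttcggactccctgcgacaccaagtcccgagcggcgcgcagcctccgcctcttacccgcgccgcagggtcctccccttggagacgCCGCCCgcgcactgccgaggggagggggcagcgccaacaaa

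Col6a1 and Col6a2 lie on the minus strand of chromosome 10, 85162 bases apart, and Col18a1 lies 326010 bases beyond Col6a1 on the same strand. The window of Col6a1, chr10:76725995-76726294, was the only one of the 10 windows of these genes with an AP-1 match, which 7.81% of all windows held. The window at the upstream start of Col6a2, chr10:76623581-76623880, held 1 GC box, a motif present in 35.7% of all windows.
Col6a1: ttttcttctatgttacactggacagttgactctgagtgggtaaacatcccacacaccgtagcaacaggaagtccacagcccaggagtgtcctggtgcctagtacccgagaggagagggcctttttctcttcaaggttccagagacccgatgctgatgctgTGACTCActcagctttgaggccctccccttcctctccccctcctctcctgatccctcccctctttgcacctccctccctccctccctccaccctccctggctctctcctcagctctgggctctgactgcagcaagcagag
Col6a2: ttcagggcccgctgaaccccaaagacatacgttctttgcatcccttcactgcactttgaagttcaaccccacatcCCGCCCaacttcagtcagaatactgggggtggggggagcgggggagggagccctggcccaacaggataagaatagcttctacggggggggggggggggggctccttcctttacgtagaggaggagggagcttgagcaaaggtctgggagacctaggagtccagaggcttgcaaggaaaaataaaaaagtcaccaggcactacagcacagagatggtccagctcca

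Col18a1 is transcribed from starts 52602 bases apart. The upstream start is known to give the short form of the collagen XVIII chain and the downstream one the longer forms. The window at the upstream start, chr10:77166481-77166780, held 3 GC boxes and 1 CCAAT match. The window at the downstream start, chr10:77113656-77113955, held no GC box, 2 TEAD matches and 1 Smad match, motifs present in 14.7% and 21.0% of all windows. Both lie on the minus strand, and they are shown because the values of Col18a1 are given by start site further on.
Col18a1 upstream: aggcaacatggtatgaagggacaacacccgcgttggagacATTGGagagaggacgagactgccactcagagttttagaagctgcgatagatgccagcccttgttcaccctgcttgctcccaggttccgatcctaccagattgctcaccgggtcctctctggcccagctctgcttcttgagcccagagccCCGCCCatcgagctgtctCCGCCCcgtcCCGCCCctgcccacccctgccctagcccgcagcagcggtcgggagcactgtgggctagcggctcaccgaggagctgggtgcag
Col18a1 downstream: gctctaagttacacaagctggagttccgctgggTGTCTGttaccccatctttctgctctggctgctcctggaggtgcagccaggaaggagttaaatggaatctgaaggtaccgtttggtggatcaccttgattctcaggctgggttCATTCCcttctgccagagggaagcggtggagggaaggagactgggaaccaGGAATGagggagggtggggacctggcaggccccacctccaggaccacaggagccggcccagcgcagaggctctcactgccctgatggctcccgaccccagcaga

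The question of the comparison was how cartilage responds in the first week after rupture. Values of single libraries are CPM normalised by TMM, in which libraries but not genes can be compared. A gene was called at a false discovery rate (FDR) of at most 0.05 and a change of at least 1.5-fold by edgeR's quasi-likelihood test, and the errors of log2 fold changes are standard errors. In CPM, for all 10 genes, every day 7 injured library was above every naïve, day 7 contralateral and day 1 injured library, as was the case for 17.4%, 18.6% and 22.8% of the genes tested.

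**Figure D1:**
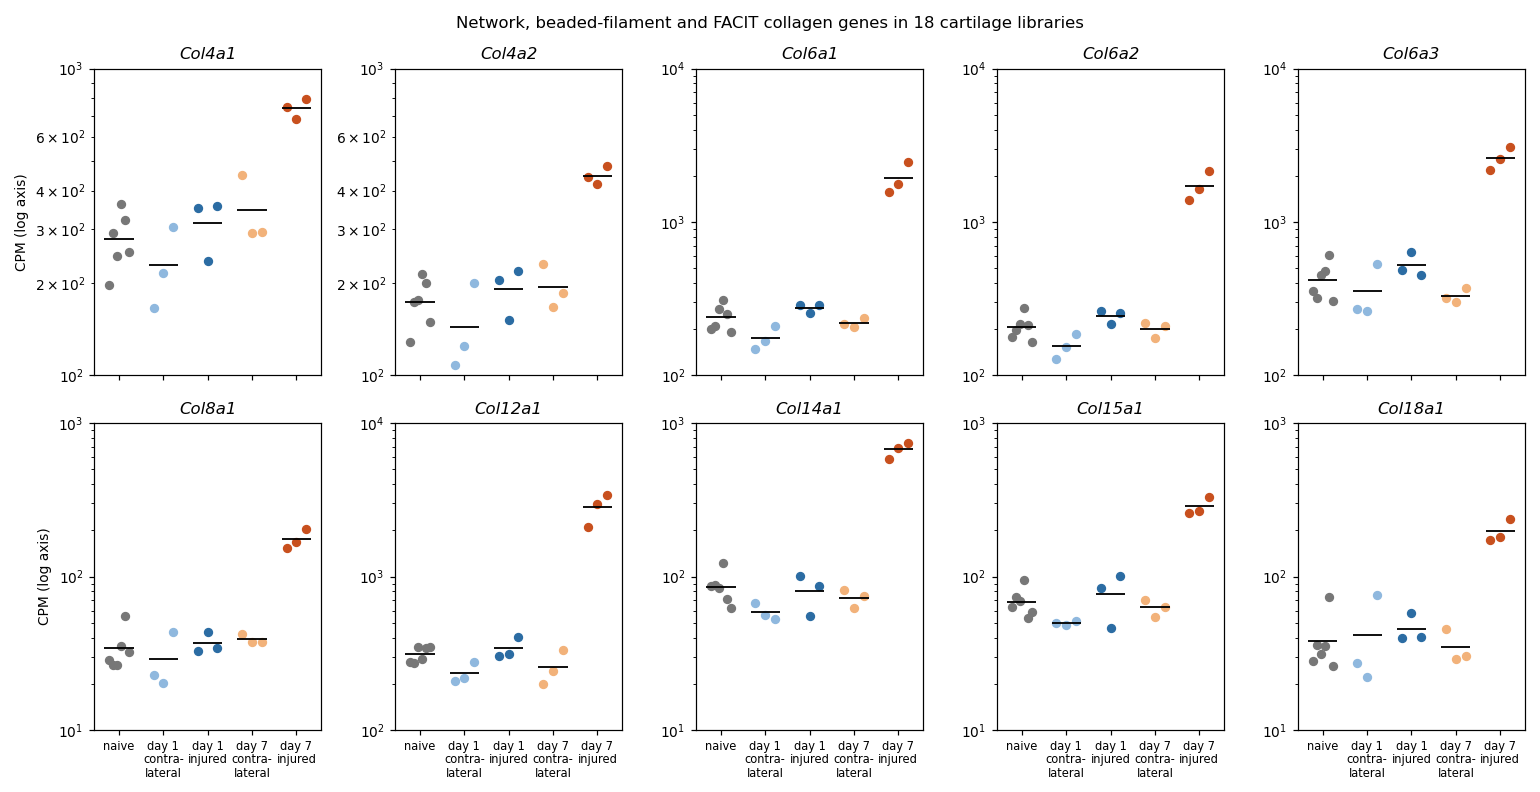
CPM (log axis) of the 10 genes in each of the 18 libraries, by group, with 1 point per library and a line at the group mean. In every panel the 3 day 7 injured libraries lie above the 15 other libraries.

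Of the network-forming collagens, Col4a1 and Col4a2, which encode the α1 and α2 chains of the common basement membrane network, changed least of the 10. Col4a1 (chr8:11198423-11312826) had 748, 684 and 794 CPM in the 3 day 7 injured libraries. It had 451, 292 and 294 CPM in the day 7 contralateral libraries, 351, 236 and 356 CPM at day 1 injured, 166, 215 and 305 CPM at day 1 contralateral, and in naïve libraries a lowest, median and highest of 197, 272 and 361 CPM. The day 7 injured libraries were above all others, the nearest being day 7 contralateral library 1. The log2 fold change of Col4a1 was 1.43 ± 0.19 against naïve (edgeR FDR = 5.2e-05). Against the day 7 contralateral knee it was 1.10 ± 0.24 (edgeR FDR = 0.0039), and 1.36 without contralateral library 1. The 10 genes were tested at day 7 injured against naïve, day 7 contralateral and day 1 injured knees. Of their calls, this was the only one that an alternative ended. With an offset for transcript length the log2 fold change of Col4a1 against contralateral was 0.91 (edgeR FDR = 0.0556).

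Col4a2 (chr8:11312805-11449287) had 442.5, 419 and 481 CPM at day 7 injured. It had 229.9, 167 and 185 CPM at day 7 contralateral, 204.5, 151 and 218 CPM at day 1 injured, 108, 125 and 199.7 CPM at day 1 contralateral, and 128, 175 and 213.5 CPM as the lowest, median and highest of naïve libraries. Groups again did not overlap with day 7 injured. Its log2 fold change was 1.39 ± 0.18 against naïve (edgeR FDR = 4.1e-05) and 1.21 ± 0.22 against contralateral (edgeR FDR = 7.6e-04), with 1.37 without contralateral library 1. Per transcript length, in TPM (transcripts scaled by length to a total of 1000000), Col4a2 stood below Col4a1 in every group. The mean log2 ratio of Col4a2 to Col4a1 was -1.28 ± 0.16 (SD, n = 6) in naïve and -1.28 ± 0.21 (SD, n = 3) in day 7 injured libraries (exact permutation p = 1), so the difference in ratio was smaller than the spread between libraries.

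Col8a1 (chr16:57624258-57754737), the α1 chain of collagen VIII, was the member of lowest level per length. It had 155, 167 and 204 CPM at day 7 injured, against 42, 37.4 and 37.4 CPM at day 7 contralateral, 32.8, 43.3 and 34.4 CPM at day 1 injured and 23.0, 20.1 and 43.5 CPM at day 1 contralateral. Naïve libraries spanned 26.4 to 55.15 CPM with a median of 30.55. The highest of the 15 was naïve library 5, still below every day 7 injured library. In log2 terms the change of Col8a1 was 2.38 ± 0.24 against naïve (edgeR FDR = 3.1e-06), 2.56 without naïve library 5, and 2.17 ± 0.28 against contralateral (edgeR FDR = 3.2e-05), with 2.25 without contralateral library 1.

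The 3 chains of collagen VI rose more than the network collagens of basement membrane. Col6a1 (chr10:76708792-76726168), the α1 chain, had 1560, 1778 and 2465 CPM at day 7 injured. It had 215, 206 and 237 CPM at day 7 contralateral, 285, 255 and 287 CPM at day 1 injured, 149, 167 and 208 CPM at day 1 contralateral, and 191, 229 and 309 CPM as the lowest, median and highest of naïve libraries. The lowest day 7 injured value was above the highest of the 15 other libraries, 309 CPM in naïve library 4. Col6a1 changed by a log2 fold of 3.04 ± 0.17 against naïve (edgeR FDR = 6.3e-09) and 3.14 ± 0.21 against contralateral (edgeR FDR = 2.5e-08), with 3.15 without contralateral library 1.

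Col6a2 (chr10:76595762-76623630), the α2 chain, followed Col6a1 closely. It had 1380, 1637 and 2164 CPM at day 7 injured, 221, 175 and 209 CPM at day 7 contralateral, 262, 216 and 255 CPM at day 1 injured, 127, 152 and 185 CPM at day 1 contralateral, and 164.5, 205 and 273 CPM as the lowest, median and highest of naïve libraries. Over the 18 libraries, no other gene was as close to Col6a1 in log2 CPM as Col6a2, and the reverse held too (Pearson's r = 0.998, with the 3 day 7 injured libraries far from the rest and no test made). The log2 fold change of Col6a2 was 3.08 ± 0.16 against naïve (edgeR FDR = 4.6e-09) and 3.10 ± 0.21 against contralateral (edgeR FDR = 2.6e-08), with 3.19 without contralateral library 1.

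Col6a3 (chr1:90765923-90843971), the large α3 chain whose end is cut off as endotrophin, had 2192, 2585 and 3100 CPM at day 7 injured. It had 318, 299.9 and 371 CPM at day 7 contralateral, 487, 640 and 453 CPM at day 1 injured, 272, 262 and 531 CPM at day 1 contralateral, and 307, 402.5 and 611 CPM as the lowest, median and highest of naïve libraries. The spread among libraries without day 7 injury was wider than for the other chains, with high values in naïve library 5, day 1 contralateral library 3 and day 1 injured library 2. The log2 fold change was 2.66 ± 0.24 against naïve (edgeR FDR = 1.1e-06) and 2.99 ± 0.30 against contralateral (edgeR FDR = 1.8e-06), with 2.99 without contralateral library 1.

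The balance of the collagen VI chains was compared by TPM. The mean log2 ratio of Col6a2 to Col6a1 was -0.20 ± 0.08 (SD, n = 6) in naïve and -0.13 ± 0.04 (SD, n = 3) in day 7 injured libraries (exact permutation p = 0.167). The ratio of Col6a3 to Col6a1 was 0.26 ± 0.26 (SD, n = 6) in naïve and -0.07 ± 0.09 (SD, n = 3) in day 7 injured libraries, a difference of -0.32. Its two-sided exact permutation p of 0.0238 was the smallest that 3 against 6 libraries can give, and adjusted over the 3 ratios it was 0.0714, which did not pass 0.05. The value of naïve library 5, 0.76, lay apart from the other naïve libraries.

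Of the FACITs, Col12a1 (chr9:79598991-79718831), the chain of collagen XII, had the largest fold change of the 10 against naïve. Its day 7 injured libraries had 2112, 2994 and 3382 CPM. It had 201, 242 and 332 CPM at day 7 contralateral, 305, 315 and 404 CPM at day 1 injured, 209.7, 219 and 277 CPM at day 1 contralateral, and 273, 316 and 347 CPM as the lowest, median and highest of naïve libraries. The groups apart from day 7 injured lay between 201 and 404 CPM. Col12a1 had a log2 fold change of 3.20 ± 0.15 against naïve (edgeR FDR = 1.8e-09) and 3.45 ± 0.22 against contralateral, or 10.9-fold (edgeR FDR = 1.8e-08), with a log2 value of 3.32 without contralateral library 1.

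Col14a1 (chr15:55307750-55520803), the chain of collagen XIV, had 588, 691.5 and 749 CPM at day 7 injured. It had 81.3, 62.2 and 74.55 CPM at day 7 contralateral, 100.3, 55.5 and 86.3 CPM at day 1 injured, 67.2, 56.2 and 53.0 CPM at day 1 contralateral, and 62.8, 85.7 and 123 CPM as the lowest, median and highest of naïve libraries. Day 7 injured libraries again lay apart from the rest. Col14a1 had a log2 fold change of 2.99 ± 0.19 against naïve (edgeR FDR = 2.6e-08) and 3.22 ± 0.24 against contralateral (edgeR FDR = 8.7e-08), with 3.33 without contralateral library 1.

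Col15a1 (chr4:47208161-47313167), the chain of collagen XV, had 259.8, 268.5 and 332 CPM at day 7 injured. It had 70.5, 54.8 and 63.5 CPM at day 7 contralateral, 83.8, 46.2 and 101 CPM at day 1 injured, 50.04, 48.2 and 51.7 CPM at day 1 contralateral, and 53.95, 66.0 and 94.3 CPM as the lowest, median and highest of naïve libraries. It rose by more than the collagen IV genes and by less than the collagen VI chains. The log2 fold change was 2.08 ± 0.19 against naïve (edgeR FDR = 1.2e-06) and 2.19 ± 0.23 against contralateral (edgeR FDR = 4.1e-06), with 2.30 without contralateral library 1. No difference between fold changes of these genes was itself tested.

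Col18a1 (chr10:77052178-77166548), the chain of collagen XVIII, had 174.5, 182 and 238 CPM at day 7 injured. It had 45.4, 29.1 and 30.4 CPM at day 7 contralateral, 39.9, 57.6 and 40.1 CPM at day 1 injured, 27.2, 22.1 and 75.5 CPM at day 1 contralateral, and 25.95, 33.2 and 73.3 CPM as the lowest, median and highest of naïve libraries. The high values outside the day 7 injured group were those of naïve library 5, day 1 contralateral library 3 and day 1 injured library 2, the libraries in which Col6a3 was also high. Each of these 3 had the lowest summed adipocyte markers of its group (209, 204.5 and 166 CPM) and the lowest summed skeletal muscle markers (2836, 4177 and 3144 CPM), and the part of this in the values of Col18a1 and Col6a3 was not tested. The log2 fold change was 2.39 ± 0.35 against naïve (edgeR FDR = 1.1e-04), 2.68 without naïve library 5, and 2.51 ± 0.43 against contralateral (edgeR FDR = 4.2e-04), with 2.76 without contralateral library 1.

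Against the day 7 contralateral knee, all 10 genes were called higher, where 12.6% of the 21262 genes tested were called and 9.33% were called higher. All 10 were also called without contralateral library 1, where 11.3% of genes were called and 9.31% were called higher, with log2 fold changes from 1.36 for Col4a1 to 3.33 for Col14a1. Against the day 1 injured knee, all 10 were called higher as well (15.4% of genes called, 9.04% higher), from 1.25 ± 0.22 for Col4a2 to 3.09 ± 0.24 for Col14a1. For all 10 genes this difference was smaller in the deposited TPM, which are not scaled by TMM. Mean TPM of Col6a1 was 52.5 ± 10.35 at day 1 injured and 206 ± 74 at day 7 injured (SD, n = 3), beside an edgeR fold change of 7.10. For Col15a1 the means were 13.9 ± 6.0 and 26.7 ± 4.4 TPM, beside a fold change of 3.78. Mean TPM of Col4a1 was 56.4 ± 20.5 at day 1 injured and 71.6 ± 12.0 at day 7 injured (SD, n = 3), and of Col4a2 23.1 ± 7.0 and 29.5 ± 5.0 TPM. For both of these genes the injured libraries of the 2 days overlapped in TPM. Against naïve the difference was likewise smaller in TPM for all 10 genes. Mean TPM of Col4a2 was 14.2 in naïve and 29.5 in day 7 injured libraries, beside an edgeR fold change of 2.61. For Col12a1 these means were 16.6 and 123 TPM, beside a fold change of 9.16. The 3 comparisons share the day 7 injured libraries. The median log2 fold change of the 10 genes was 2.52, 2.75 and 2.30 in these comparisons, where the median over all genes tested was -0.04, -0.05 and -0.0021.

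**Figure D2:**
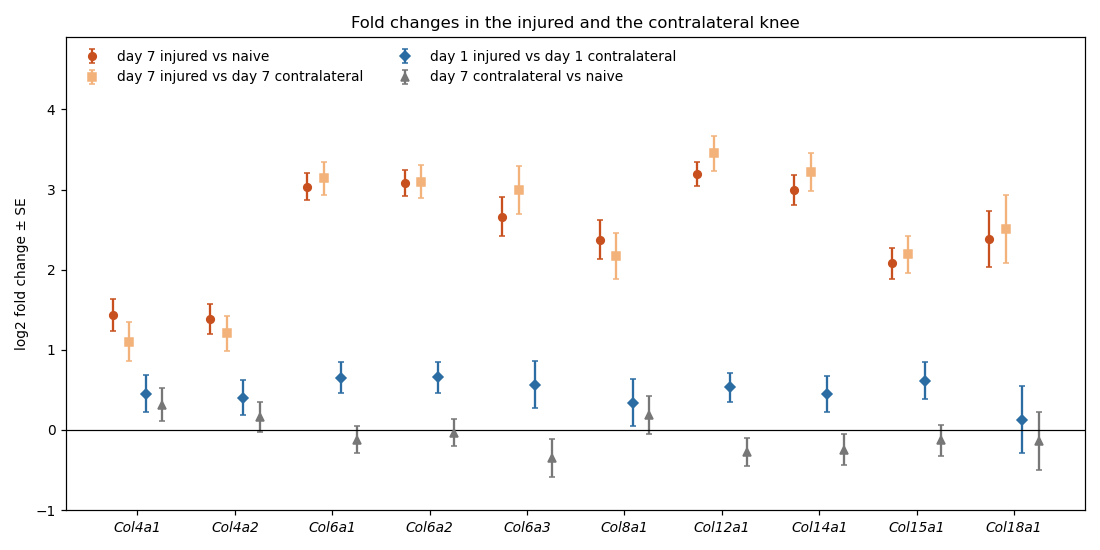
Log2 fold change ± standard error of each gene in 4 comparisons (edgeR), with 3 libraries per injured or contralateral group and 6 naïve libraries. Both day 7 injured comparisons lie above 1 for every gene, and the day 1 and contralateral comparisons lie between -0.35 and 0.66.

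At day 1 no gene of the 10 was called in the injured knee, against the contralateral knee (0% of genes called) or against naïve (0%). The largest differences from the contralateral knee were those of collagen VI, with log2 fold changes of 0.66 ± 0.20 for Col6a2 and 0.65 ± 0.20 for Col6a1 (edgeR FDR = 0.755 for both). Both genes, and Col12a1, had all 3 day 1 injured libraries above all 3 contralateral ones (3 of 10 genes, and 5.09% of all genes tested). Against naïve the same genes differed by 0.24 ± 0.17, 0.21 ± 0.17 and 0.12 ± 0.15 (lowest edgeR FDR of the 3 = 0.987), and in CPM their libraries overlapped. In TPM, not scaled by TMM, all 3 day 1 injured libraries lay above every naïve one for each of these genes. For Col6a1 they had 45.9 to 64.5 TPM, and naïve libraries 21.9 to 38.9 TPM. At an unadjusted p under 0.05, the edgeR test picked 4 of the 10 genes (Col6a1, Col6a2, Col12a1 and Col15a1) against contralateral and none against naïve, where it picked 6.55% and 4.54% of all genes. DESeq2 and limma-voom called none of the 10 either, and of all genes DESeq2 called 0 and 15 and limma-voom 0 and 0.

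The contralateral knee was compared with naïve knees as a second control. At day 7 none of the 10 was called (0% of genes called), with log2 fold changes from -0.35 ± 0.24 for Col6a3 to 0.31 ± 0.21 for Col4a1. Without contralateral library 1 none was called either (0% of genes called), with values from -0.37 ± 0.42 for Col18a1 to 0.13 ± 0.28 for Col8a1, and the value of Col4a1 was 0.07. At day 1 none was called either (0% of genes called). There the median log2 fold change was -0.34 over the 10 genes and -0.0011 over all genes tested, and it was also below 0 in the other lists described here, such as the fibrillar collagens (-0.45), the chondrocyte markers (-0.39) and the binding partners (-0.27). The lowest value of the 10 was -0.55 ± 0.20 for Col14a1 (edgeR FDR = 1.00), and all 3 contralateral libraries of Col15a1 were below all 6 naïve ones (1 of 10 genes, and 0.753% of all genes tested). Between the contralateral knees of day 7 and day 1, 0.0188% of genes were called and none of the 10, and Col4a1 had the largest difference at 0.60 ± 0.24 (edgeR FDR = 0.359). Without contralateral library 1 of day 7 no gene was called (0%), and the difference of Col4a1 was 0.35 ± 0.25 (edgeR FDR = 0.858). The unadjusted edgeR p was under 0.05 for 0 of the 10 genes in the first of these comparisons, for 5 in the second (Col6a1, Col6a2, Col12a1, Col14a1 and Col15a1) and for 1 in the third (Col4a1). Over all genes tested the shares were 15.1%, 2.62% and 12.4%, and without contralateral library 1 of day 7 the first and the third were 0 of 10 (5.51% of all genes) and 0 of 10 (6.3%). DESeq2 and limma-voom called none of the 10 in any.

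Whether the injury effect grew from day 1 to day 7 was tested as the difference between the injured-to-contralateral fold changes of the 2 days. It was called for 8 of the 10 genes, all larger at day 7, where 3.77% of the 21262 genes were called. The difference was largest for Col12a1, at 2.92 ± 0.28 on the log2 scale (edgeR FDR = 2.1e-05), and Col14a1 (2.76 ± 0.32) and Col6a1 (2.48 ± 0.27) followed. For Col4a1 it was 0.64 ± 0.34 (edgeR FDR = 0.376) and for Col4a2 0.80 ± 0.31 (edgeR FDR = 0.182), and the call was not made. Without day 7 contralateral library 1 the same 8 genes were called (4.41% of genes called), from 1.68 for Col15a1 to 2.87 for Col14a1, and Col4a1 and Col4a2 had 0.91 (edgeR FDR = 0.148) and 0.97 (edgeR FDR = 0.102). For Col18a1 it was 2.37 ± 0.58 (edgeR FDR = 0.0271), and the call was lost without any 1 of 7 libraries (day 1 injured 1 or 3, day 1 contralateral 3, day 7 contralateral 2 or 3, day 7 injured 2 or 3), with values from 1.60 (edgeR FDR = 0.0967, without day 1 contralateral library 3) to 2.44 (edgeR FDR = 0.0506, without day 7 injured library 2).

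Levels of different genes were compared by TPM. In naïve cartilage the order of mean TPM was Col6a3 (37.9 ± 12.8, SD), Col4a1 (34.7 ± 7.6), Col6a1 (31.0 ± 7.3), Col6a2 (26.8 ± 5.6), Col12a1 (16.6 ± 3.1), Col4a2 (14.2 ± 3.1), Col14a1 (8.56 ± 2.02), Col15a1 (8.32 ± 1.60), Col18a1 (4.89 ± 1.97) and Col8a1 (3.61 ± 1.35), with n = 6. The ranges of neighbours in this order overlapped, except those of Col6a2 and Col12a1. At day 7 injured the order began with Col6a1 (206 ± 74, SD, n = 3), Col6a3 (196 ± 63), Col6a2 (189 ± 66) and Col12a1 (123 ± 40), and Col4a1 followed at 71.6 ± 12.0. The summed TPM of the 10 genes was 186 ± 38 (SD, n = 6) in naïve libraries, 184 ± 30 and 318 ± 61 (SD, n = 3) at day 1 contralateral and injured, 160 ± 65 (SD, n = 3) at day 7 contralateral and 932 ± 280 (SD, n = 3) at day 7 injured. Summed TPM of day 1 injured libraries (281 to 388 TPM) lay above those of naïve ones (142 to 230 TPM), but in CPM the sums overlapped, at 2134 ± 110 CPM (SD, n = 3) and 1856 ± 297 CPM (SD, n = 6). Day 7 contralateral library 1 likewise had the lowest sum of the 18 in TPM, 86.05, but not in CPM, where its 1875 CPM was above the 1566 and 1834 CPM of the other 2 libraries of its group.

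**Figure D3:**
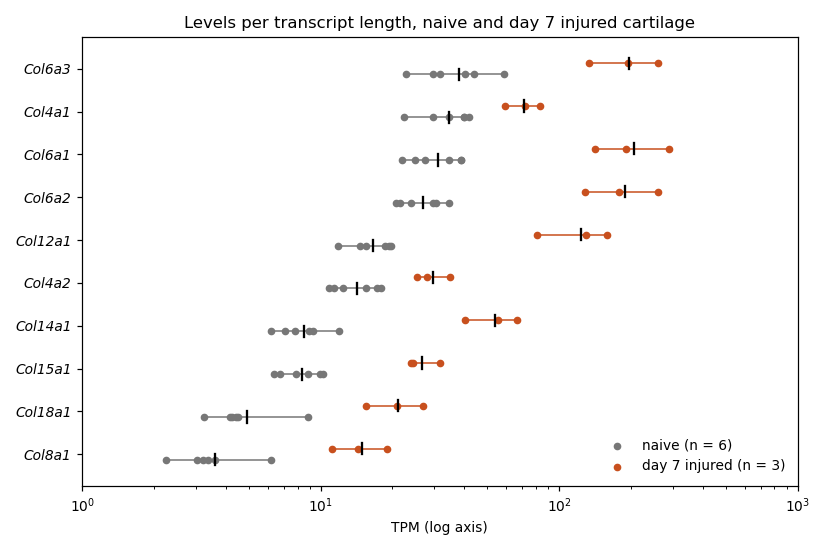
TPM (log axis) of each gene in the 6 naïve and the 3 day 7 injured libraries, in the order of the naïve means, with points for libraries, thin lines for the range and black ticks for the mean. Col6a1, Col6a2 and Col12a1 had lower means than Col4a1 in naïve and higher means in day 7 injured libraries, and Col6a3 had the higher mean in both.

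The estimated counts of Col18a1 and Col6a2 could be split by start site, a split chosen after the shares of single transcripts had been seen. The adjustment over 4 tests does not cover this choice. Both genes were already called higher, so the exact permutation p of their main start restates that call. Kallisto divides reads that fit several transcripts by a model, so these values are estimates. They are counts of whole transcripts grouped by annotated start, and use of the starts themselves was not measured. From the upstream start of Col18a1 (transcript Col18a1-202, first base 77166548) came 144.5, 154 and 218 CPM at day 7 injured and 27.5 ± 18.6 CPM (SD, n = 6) in naïve libraries, a ratio of means of 6.27 (exact permutation p = 0.0238, adjusted over 4 tests 0.0317). From the downstream starts (Col18a1-201 and Col18a1-203) came 25.5, 20.2 and 13.8 CPM at day 7 injured and 9.70 ± 2.84 CPM (SD, n = 6) in naïve libraries, a ratio of 2.04 (exact permutation p = 0.0476, adjusted 0.0476). The upstream start thus took 144.9 of the 159.7 CPM by which the mean of the gene rose, and the downstream starts 10.1 CPM, with the rest in other transcripts of the gene.

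The 3 libraries named above were high at the upstream start and not at the downstream ones. Naïve library 5, day 1 contralateral library 3 and day 1 injured library 2 had 65.2, 66.4 and 48.9 CPM there and 7.38, 7.25 and 7.17 CPM at the downstream starts. The other 12 had 7.39 to 28.9 CPM upstream. Day 7 contralateral library 1 was the reverse, with 7.39 CPM upstream and 34.9 CPM downstream, the highest downstream value of the 18. The share of Col18a1 counts from the upstream start was 82.8% to 91.8% at day 7 injured and 56.7% to 88.9% in naïve libraries, and this difference did not pass (exact permutation p = 0.0714, adjusted over 5 genes 0.119).

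For Col6a2, whose starts lie only 305 bases apart, the upstream start (Col6a2-201) had 1244, 1479 and 1986 CPM at day 7 injured and 164 ± 32 CPM (SD, n = 6) in naïve libraries, a ratio of means of 9.56 (exact permutation p = 0.0238, adjusted 0.0317). The downstream starts had 136, 157 and 178 CPM and 42.1 ± 7.9 CPM, a ratio of 3.73 (exact permutation p = 0.0238, adjusted 0.0317). Their transcripts, Col6a2-202 (4653 bases) and Col6a2-203 (with a retained intron), differ from Col6a2-201 (3949 bases) in more than the start. The upstream share was 90.2% to 91.8% at day 7 injured and 75.8% to 82.0% in naïve libraries, without overlap, and its highest value in the 15 other libraries was 82.8%. The exact permutation p of 0.0238 became 0.119 after adjustment over the 5 genes with a second transcript of at least 10%, and none of the 5 passed. The leading transcript of Col12a1 made up 77.2% ± 0.8 (SD, n = 3) at day 7 injured and 80.2% ± 1.4 (SD, n = 6) in naïve libraries (exact permutation p = 0.0476, adjusted 0.119). Its shares overlapped between the groups (76.6% to 78.0% and 77.6% to 81.55%), as did those of the leading transcripts of Col6a3 and Col14a1.

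**Figure D4:**
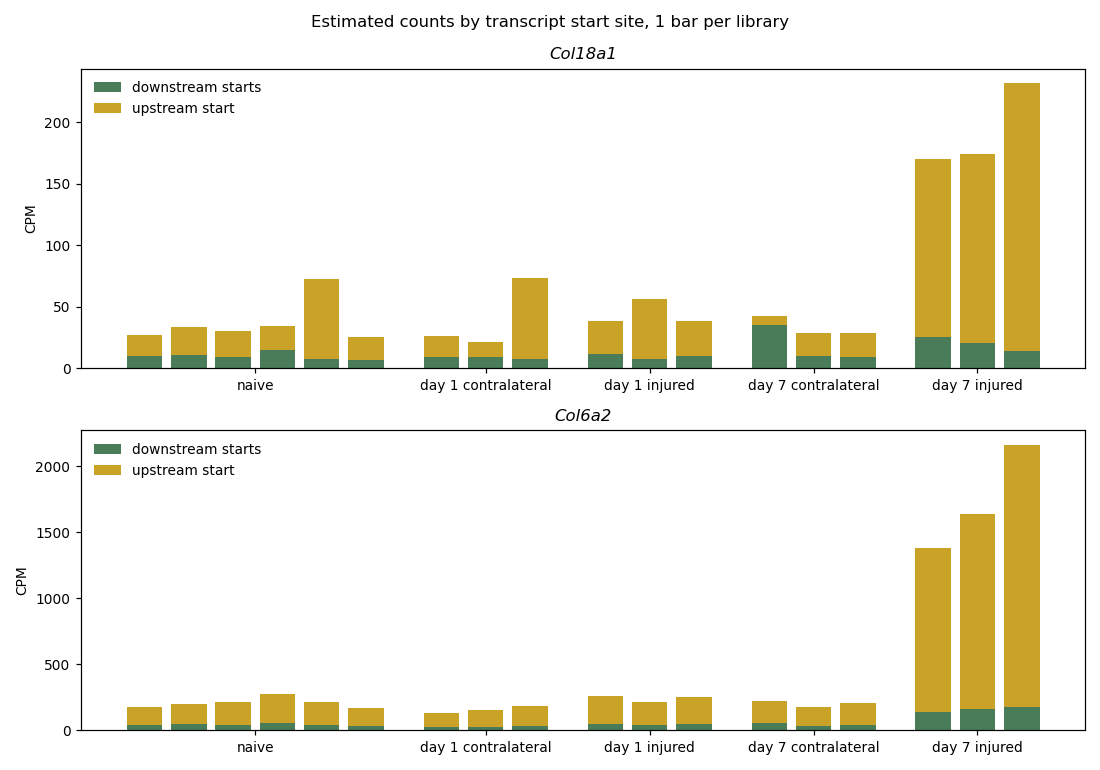
CPM by start site of Col18a1 (top) and Col6a2 (bottom), with 1 stacked bar per library in replicate order, green for the downstream and yellow for the upstream start. The added RNA at day 7 injured lies mostly in the yellow part, as do the high Col18a1 bars of naïve library 5, day 1 contralateral library 3 and day 1 injured library 2.

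Other collagens of the same families were described by counts from a list, as were the fibrillar collagens, binding partners and receptors that follow. Over all genes tested, 10.4% were called higher at day 7 injured against naïve. Against the contralateral knee it was 9.33%, and 9.31% without contralateral library 1. Of 18 other collagens of the same families tested, 6 were called higher and none lower against naïve, with a median log2 fold change of 0.45. Those called were Col16a1, a FACIT-like collagen (2.85 ± 0.12, edgeR FDR = 1.5e-09), Col7a1, the anchoring fibril collagen of skin (2.79 ± 0.22, edgeR FDR = 3.2e-07), Col8a2, the partner chain of Col8a1 (2.79 ± 0.17, edgeR FDR = 2.5e-08), Col6a6 (2.05), Col6a5 (1.27) and Col22a1 (0.77). Col7a1 was scarce, at 0.685 CPM in naïve and 4.67 CPM in day 7 injured libraries. Col10a1, the network collagen of hypertrophic cartilage and the most abundant of the list in naïve libraries, had a log2 fold change of -0.02 ± 0.30 (edgeR FDR = 0.971), and the cartilage FACIT chains Col9a1, Col9a2 and Col9a3 had 0.21, -0.03 and 0.26, with none called. Against the contralateral knee 5 of 18 were called higher (Col6a4, Col6a5, Col7a1, Col8a2 and Col16a1), and 3 without contralateral library 1 (Col7a1, Col8a2 and Col16a1).

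Of the 11 fibrillar collagens, 8 were called higher and none lower against naïve, with a median of 1.91. Col3a1, which forms fibrils with collagen I in loose tissue, had 3.65 ± 0.27 (edgeR FDR = 1.3e-07), Col5a1 3.25 ± 0.15 (edgeR FDR = 1.8e-09) and Col5a2 2.87 ± 0.17 (edgeR FDR = 1.3e-08), the latter pair being chains that start and limit fibrils of collagen I. Col2a1, the main fibril of cartilage, had 0.25 ± 0.20 (edgeR FDR = 0.358). Col1a1, the most abundant of the list, had 2.05 ± 0.25 (edgeR FDR = 1.7e-05) against naïve and 0.77 ± 0.39 (edgeR FDR = 0.188) against contralateral, where 5 of the 11 were called. Without contralateral library 1 it had 1.48 ± 0.34 (edgeR FDR = 0.00609) and was called, as were 7 of the 11, and the summed osteoblast markers, mostly Col1a1, were 53070 CPM in that library and 16389 and 22607 CPM in the other 2 of its group.

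Of 16 binding partners of these collagens, 13 were called higher and none lower against naïve, with a median of 1.43, and 12 against contralateral (13 without contralateral library 1). Pxdn, the peroxidase that crosslinks collagen IV, had the largest change (2.58 ± 0.24, edgeR FDR = 1.6e-06). Bgn (2.30 ± 0.16, edgeR FDR = 6.8e-08) and Fmod (1.99 ± 0.22, edgeR FDR = 6.1e-06), small proteoglycans that bind collagen, came next. The basement membrane genes Hspg2 (perlecan), Nid1 and Nid2 (nidogens) had 1.41, 1.36 and 1.49, the laminin chains Lama4, Lamb1 and Lamc1 had 1.71, 1.53 and 1.44, and Agrn (agrin) had 0.74, all of them called, beside 1.43 and 1.39 for Col4a1 and Col4a2. Fn1, fibronectin and the most abundant partner, had 1.63 ± 0.22 (edgeR FDR = 5.3e-05). Tnxb, tenascin X (-0.91 ± 0.39, edgeR FDR = 0.0937), Matn1 (-0.67) and Matn3 (0.30), matrilins, were not called.

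Of 10 receptors, 6 were called higher and none lower against naïve, with a median of 0.64, and 5 against contralateral (also 5 without contralateral library 1). Antxr1, a receptor that binds collagen VI (2.96 ± 0.14, edgeR FDR = 2.1e-09), and Itga11, the integrin α11 chain of fibroblasts (2.80 ± 0.18, edgeR FDR = 4.7e-08), were far above the other 4, Itgb1 (1.01), Cspg4 (0.87), Ddr2 (0.69) and Itga10 (0.60). Itga1, Itga2, Ddr1 and Antxr2 had values from 0.24 to 0.36 and were not called.

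**Figure D5:**
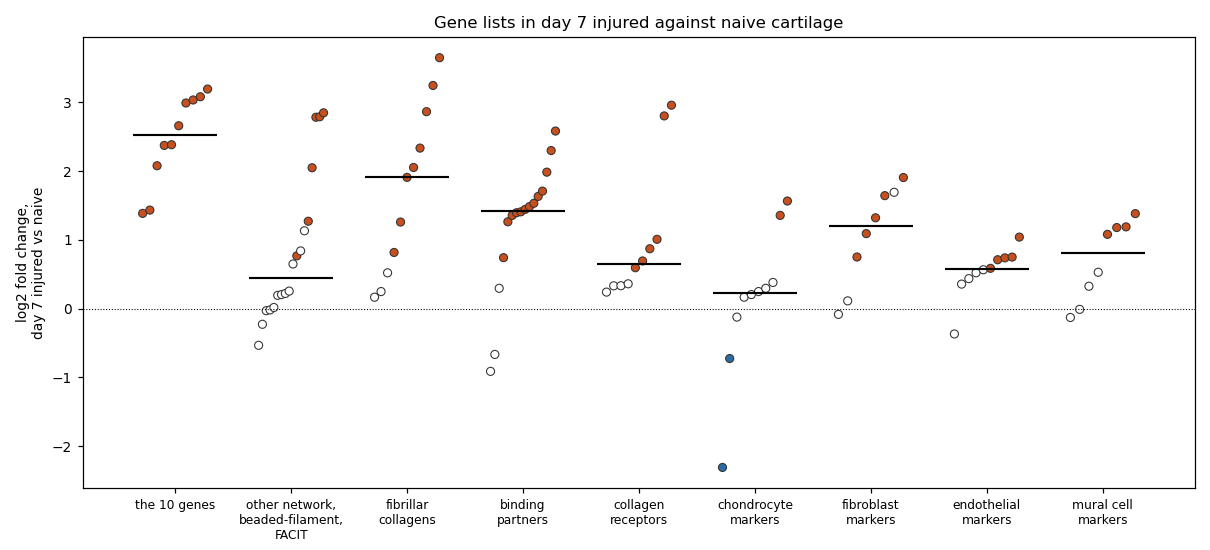
Log2 fold change of day 7 injured against naïve (edgeR) for each tested gene of 9 lists, with 1 point per gene, red for called higher, blue for called lower and white for not called, and a line at the median of the list. The 10 genes have a median of 2.52, and the chondrocyte markers one of 0.23 with 2 genes called lower.

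Markers of some cell types were called higher at day 7 injured against naïve, and those of others lower or not at all. Over all genes tested, 10.4% were called higher. Of 8 fibroblast markers, 5 were called higher, among them Thy1 (1.91) and Prrx1 (1.64). Pdpn (1.69), Pi16 (0.11) and Dpp4 (-0.08) were not called. The summed fibroblast level was 389 ± 36 CPM (SD, n = 6) in naïve and 857 ± 101 CPM (SD, n = 3) in day 7 injured libraries, with Pdgfra the most abundant. Of 8 mural cell markers, 4 were called higher (Acta2, Mcam, Pdgfrb and Rgs5). Notch3 (0.53), Kcnj8 (0.33), Abcc9 (-0.01) and Myh11 (-0.13) were not called. The mural sums were 519 ± 61 and 927 ± 116 CPM, with Rgs5 the most abundant. Of 10 endothelial markers, 5 were called higher (Emcn, Tie1, Cdh5, Pecam1 and Esam), with sums of 590 ± 40 and 713 ± 40 CPM, and the most abundant, Vwf, had -0.37. No gene of these lists was absent from all libraries or under a mean of 1 CPM. Their part in the change of the collagen genes was not tested.

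Of 10 chondrocyte markers, Acan (1.57 ± 0.20) and Sox9 (1.36 ± 0.19) were called higher and Chad (-0.73 ± 0.26) and Cytl1 (-2.31 ± 0.40) lower, with sums of 4884 ± 1260 CPM (SD, n = 6) and 6173 ± 404 CPM (SD, n = 3), mostly Col2a1. Of 8 osteoblast markers 2 were called higher, Col1a1 and Ibsp, and Col1a1 made up most of the sums of 13136 ± 3925 and 51737 ± 3879 CPM. Of the other lists, 5 of 8 adipocyte markers and 4 of 8 blood and marrow markers were called lower, with sums that went from 356 ± 117 to 177 ± 24 CPM and from 28349 ± 2153 to 18478 ± 4115 CPM. Over all genes tested against naïve, 6.11% were called lower and 10.4% higher. Of 8 skeletal muscle and 8 macrophage markers none was called, and the muscle sums were 6162 ± 2448 and 3500 ± 1188 CPM and the macrophage sums 2577 ± 297 and 2544 ± 278 CPM. The most abundant genes of the last 4 lists were Fabp4, Hbb-bs, Myh4 and Lyz2. In all marker lists the most abundant gene is the one of highest CPM, which is not corrected for transcript length. Against the day 7 contralateral knee, 6 fibroblast, 4 mural and 3 endothelial markers were called higher, 3 chondrocyte markers higher and 1 lower, and no osteoblast or muscle marker either way, while 5 adipocyte, 2 blood and marrow and 1 macrophage markers were called lower. Over all genes tested in this comparison, 9.33% were called higher and 3.23% lower. Without contralateral library 1 the called markers were 5 fibroblast, 5 mural and 4 endothelial markers higher, 2 chondrocyte markers higher and 1 lower, 1 osteoblast marker higher and 1 lower, no muscle or macrophage marker, and 2 adipocyte and 2 blood and marrow markers lower. Of all genes tested without it, 11.3% were called either way and 9.31% higher.

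Over the 18 libraries, the genes outside the 10 whose log2 CPM was most like their mean pattern were P4ha2, a prolyl hydroxylase of collagen (Pearson's r = 0.994), Anpep (0.994), Ppfibp1 (0.992), Plod1, a lysyl hydroxylase of collagen (0.990), and C1qtnf5 (0.988). The gene most like each single member was its partner chain for Col4a1 and Col4a2 (0.987) and for Col6a1 and Col6a2. It was Aebp1 for Col6a3, Ptgfrn for Col8a1, Tnn, a tenascin, for Col12a1, Matn2 for Col14a1, Htra1 for Col15a1 and Adgra2 for Col18a1, with r from 0.981 to 0.994. These values describe libraries that share the day 7 injured group, and no test was made.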

How the data were processed

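RNA was taken from pooled cartilage caps of mouse knees and sequenced as total RNA after removal of ribosomal RNA. Per the labels and methods, adapters were trimmed, reads were quantified with Kallisto on the mouse transcriptome of Ensembl (GRCm38), and the authors deposited estimated counts per transcript, not normalized. The labels name kallisto, DESeq2 and the human build GRCh38, while the identifiers are of mouse. The deposited TPM values, from the same Kallisto output by the authors, correct for effective length and sum to the same total in each library, and served to compare genes.

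Of 137436 transcripts, 135107 (98.3%) were assigned to a gene of GENCODE M21 without the identifier version. The 2329 others held 0.667% to 3.9% of the counts of a library. Estimated counts were summed by gene and rounded. Genes were tested with edgeR 4.0.16 (R 4.3.3; quasi-likelihood, TMM, filterByExpr, Benjamini-Hochberg), with all groups in 1 fit of 18 libraries (21262 genes), or of 15 without the day 7 contralateral group where it was not compared (21129 genes). The test was tried on simulated data with known changes. limma-voom (limma 3.58.1) and DESeq2 1.42.0 were alternatives. The correlation between knees of a mouse, estimated in the study, could not be estimated, since the labels do not tie libraries to mice. The study left out 1 ACL library of low mapping that it does not name, and no library was left out here beyond the leave-one-out fits.

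Shares of transcripts and ratios of chains were compared by two-sided exact permutation over the 3 day 7 injured and 6 naïve libraries, which cannot give a p below 0.0238. The genes and lists were chosen with earlier results of these data known, so their counts are descriptions. All 10 genes are named. Of the other lists, the 3 called genes of largest change against naïve and the most abundant gene are named, with a few more chosen after their values were seen. Intervals and errors over libraries that share mice may be too small.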

Additional observations from a re-analysis of the deposited data

Results flagged for a closer look

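Naïve library 5 lay apart from the other 5 naïve libraries in 4 of the 22 sets of values tested by Dixon's criterion. Chance alone meets it in about 1 of 20 separate sets, but these sets share counts, so that rate is no measure for this number. Naïve library 5 had 73.3 CPM of Col18a1, of which 65.2 CPM came from the upstream start and made up another of the sets. It also had 55.15 CPM of Col8a1 and a log2 TPM ratio of Col6a3 to Col6a1 of 0.76. The next highest naïve library had 36.05 CPM of Col18a1. Of the naïve libraries, this one also had the lowest summed adipocyte and skeletal muscle markers, at 209 and 2836 CPM (266.9 and 4502 CPM in the next lowest), and their part in these values was not tested.

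The injury effect differed between day 7 and day 1 by the test of the difference itself for 8 genes, by log2 values of 2.48 for Col6a1, 2.44 for Col6a2, 2.42 for Col6a3, 1.82 for Col8a1, 2.92 for Col12a1, 2.76 for Col14a1, 1.57 for Col15a1 and 2.37 for Col18a1. The call of Col18a1 was lost without any 1 of 7 libraries, with values from 1.60 to 2.44.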

How the results depend on the processing

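All 10 genes remained called higher at day 7 injured against naïve, contralateral and day 1 injured in each of the alternatives tried (size factors of DESeq2, no filter on low counts, DESeq2, limma-voom, the compared groups alone, all 18 libraries in 1 fit, other FDR limits, a transcript length offset, protein-coding transcripts alone, and each library left out), except Col4a1 against contralateral with the length offset. Against naïve, log2 fold changes without 1 library ranged from 1.35 to 1.52 for Col4a1 and from 2.23 to 2.68 for Col18a1, and none of the 10 was called at day 1 or in the contralateral comparisons under any alternative. The difference of injury effects was called for 6 to 8 genes. At an FDR of 0.01 it was lost for Col8a1 (1.82) and Col18a1 (2.37). For Col18a1 it was also lost without day 1 injured library 1 (2.28, edgeR FDR = 0.0788) or 3 (2.29, 0.0657), day 1 contralateral library 3 (1.603, 0.0967), day 7 contralateral library 2 (2.24, 0.0735) or 3 (2.27, 0.0645), or day 7 injured library 2 (2.44, 0.0506) or 3 (2.21, 0.0931). No called value of these genes changed sign. No share of transcripts and no ratio of chains passed with the other unit or without any library. Without 1 day 7 injured library the smallest possible exact permutation p is 0.0714, so those comparisons could not pass 0.05.

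Counts over all genes moved more. Against naïve, the 3498 called genes (63.1% higher) became 6291 without a fold limit and 2381 (80.2% higher) at an FDR of 0.01. Against contralateral, 2670 (74.3% higher) became 1803 (86.1%) at an FDR of 0.01, 1980 (85.9%) with the compared groups alone and 1787 (84.4%) without day 7 injured library 3. Against day 1 injured, 3257 became 5160 without a fold limit, 1895 (79.8% higher against 58.6%) at an FDR of 0.01 and 2075 with protein-coding transcripts alone. The 802 genes with a different injury effect became 344 at an FDR of 0.01, and 496, 465 and 402 without day 1 injured library 1, day 1 contralateral library 3 or day 7 injured library 3. DESeq2 called 15 genes at day 1 injured, 8 at day 7 contralateral and 2 at day 1 contralateral against naïve, where edgeR called none. Between the contralateral knees edgeR called 4 genes, 1 without a filter on low counts and 0 to 7 without 1 library, DESeq2 81, and limma-voom 0, as did edgeR with the length offset, protein-coding transcripts alone, the compared groups alone or an FDR of 0.01. The causes were not tested. No paired analysis was possible because the labels do not tie libraries to mice and replicate numbers follow the order of the samples.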
